A study of Canis lupus familiaris with 29 samples.

Results

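The genes described here are the 118 Ensembl gene IDs whose expression in every T-cell lymphoma of the series was higher than in every B-cell lymphoma. They were found in a table of FPKM values (fragments scaled to transcript length and to the size of the library, so a level corrected for gene length and library size). The table was restricted to the 11552 of 16382 IDs that reached 1 FPKM in at least 5 of 29 libraries. An ID became a member when its lowest value over the 9 T-cell libraries exceeded its highest value over the 20 B-cell libraries. This held for 1.02% of the IDs examined. The contrast between T-cell and B-cell tumours therefore chose the members, and all values on that contrast are given as a description without a test.

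RNA sequencing libraries came from tumours of golden retrievers, 1 library per labelled sample, and no treatment is given. The 9 dogs with T-cell tumours were 6 females and 3 males, of which 6 were neutered, aged 4.5 to 11.9 years at diagnosis. The 20 dogs with B-cell tumours were 9 females and 11 males, of which 17 were neutered, aged 2.0 to 14.0 years. The sources used here do not say how the phenotype was assigned, where each tumour was sampled or how many of its cells were malignant. No 2 libraries share age, sex and neuter status, although the labels do not otherwise say that each came from a separate dog. The p-values measure only the spread between these samples.

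Lymphomas are tumours of lymphocytes, and dogs develop both B-cell and T-cell forms. T cells recognise antigen through the T-cell receptor, which signals through the chains of the CD3 complex and a set of kinases inside the cell, whereas B cells use a surface immunoglobulin. Tumours usually keep part of the expression programme of the lymphocyte they arose from, and lymph node tissue also holds non-malignant lymphocytes of both kinds. The sources used here pair none of the IDs with a gene symbol: 0 of 16382 could be matched. Which members encode receptor chains, kinases or anything else is therefore not stated, the labelled cell types could not be checked against known markers, and the members are described by their levels. Sequences of the members were likewise not used here.

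The separation was narrow for most members and wide for a few. The gap ratio, the lowest T-cell value divided by the highest B-cell value, had a median of 1.104 over the members and a median of 0.280 over all IDs examined. For 58 of the 118 members it was below 1.1. It lay between 1.1 and 1.5 for 39 members and between 1.5 and 2 for 11, and it was 2 or more for 10. The 3 members nearest the limit had ratios of 1.005, 1.008 and 1.01. The 3 IDs just outside the limit had ratios of 0.998, 0.996 and 0.996. The closest of these stood at 30.8 FPKM in its lowest T-cell and 30.9 FPKM in its highest B-cell library.

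**Figure D1:**
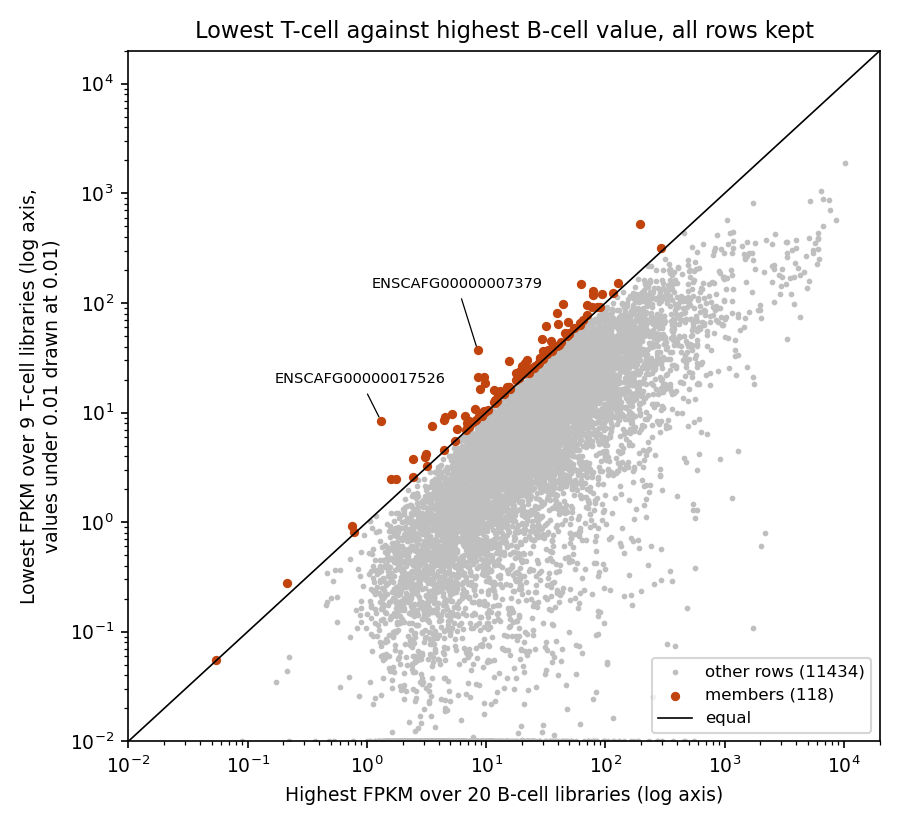
Each point is 1 of the 11552 IDs examined, with its highest FPKM over the 20 B-cell libraries on the horizontal and its lowest FPKM over the 9 T-cell libraries on the vertical axis, both logarithmic. The 118 members (coloured) lie above the line of equal values, most of them close to it, and ENSCAFG00000017526 with a ratio of 6.44 lies farthest from it.

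The member with the widest gap was ENSCAFG00000017526, with a ratio of 6.44. Its T-cell libraries ran from 8.43 FPKM in library 9 over a median of 22.9 to 34.3 FPKM in library 6. Its B-cell libraries ran from 0.162 FPKM in library 7 over a median of 0.488 to 1.31 FPKM in library 4. The groups do not overlap, and most of the B-cell tumours were below 1 FPKM. The T-cell mean was 22.2 ± 8.62 FPKM (SD, n = 9) and the B-cell mean 0.547 ± 0.369 FPKM (SD, n = 20). The log2 difference was 3.83 on the log2(FPKM + 1) scale. That scale understates the change of an ID so low in B-cell tumours: with 0.1 in place of 1 the log2 difference was 5.19.

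ENSCAFG00000007379 had the second widest gap, with a ratio of 4.37, and the largest log2 difference of any member, 4.63. Its T-cell libraries ran from 37.1 FPKM in library 6 over a median of 60.8 to 127.0 FPKM in library 5. Libraries 4, 5, 8 and 9 stood between 96.9 and 127.0 FPKM, and the other 5 between 37.1 and 60.8 FPKM. Its B-cell libraries ran from 0.254 FPKM in library 6 over a median of 1.51 to 8.49 FPKM in library 13. The B-cell tumours thus covered a 33.4-fold range and the T-cell tumours a 3.42-fold range. The T-cell mean was 77.2 ± 35.4 FPKM (SD, n = 9) and the B-cell mean 2.54 ± 2.54 FPKM (SD, n = 20).

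**Figure D2:**
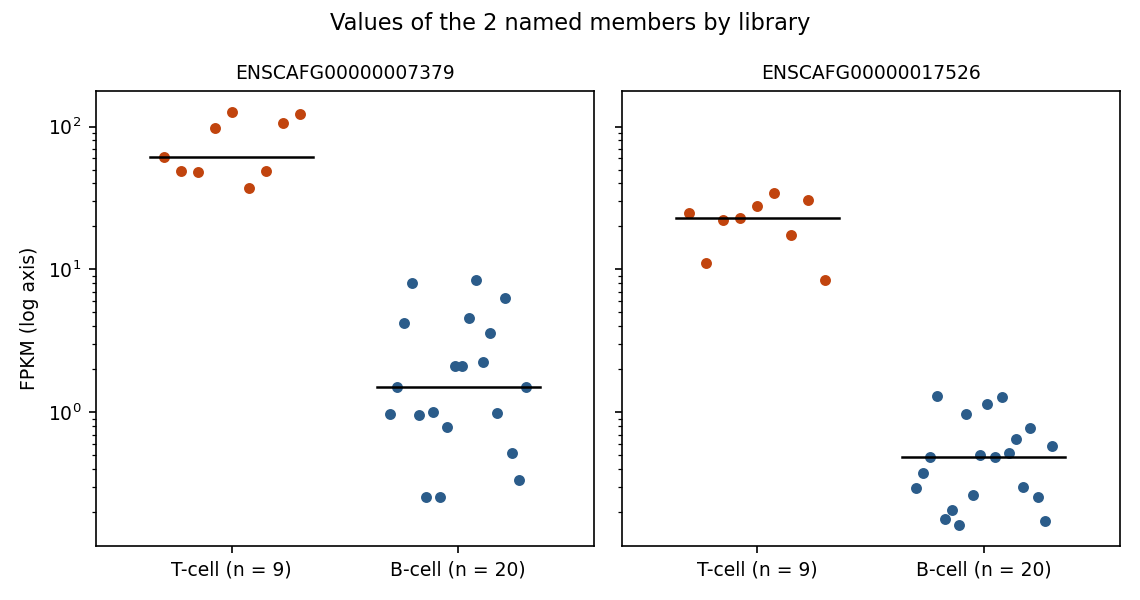
FPKM on a logarithmic axis of ENSCAFG00000007379 (left) and ENSCAFG00000017526 (right) in each of 9 T-cell and 20 B-cell libraries, 1 dot per library in order of library number, with the group median as a line. The groups do not overlap for either ID, as the choice of members requires, and the B-cell values of ENSCAFG00000007379 spread over 33.4-fold.

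The members differed widely in abundance. Their median level in T-cell tumours was 32.1 FPKM, against 13.5 FPKM over all IDs examined. In B-cell tumours it was 11.2 FPKM, close to the 12.5 FPKM of all IDs. Of the 118 members, 16 had a T-cell median of 100 FPKM or more, reaching 667 FPKM, 65 lay between 20 and 100 FPKM, 31 between 5 and 20 FPKM and 6 below 5 FPKM.

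Most members were not off in B-cell tumours, but expressed at a lower level than in T-cell tumours. The mean of the B-cell libraries was a median of 34.3% of that of the T-cell libraries, with quartiles of 20% and 48.7%, against 91.6% over all IDs. The B-cell median was below 1 FPKM for 10 members, and for 4 members every B-cell library was below 1 FPKM. In any B-cell library 3 members were listed at exactly 0, and another member had 1 value of 8.61e-13 FPKM. In bulk tissue fewer T cells in a sample and less RNA per cell cannot be told apart, for these or any other members.

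By size, 15 members exceeded the B-cell tumours by at least 8-fold, 31 by at least 4-fold and 84 by at least 2-fold, while 34 differed by less than 2-fold on the log2(FPKM + 1) scale. The 15 members with the largest differences had a T-cell median of 17.8 to 667 FPKM, and in B-cell tumours they held a median of 6.75% of the T-cell mean. The 34 with the smallest differences held 55.4% of it. A small difference without overlap requires a small spread, so the SDs of these 34 follow from the rule. On the log2 scale their SD had a median of 0.287 among T-cell tumours and of 0.243 among B-cell tumours. For the 15 largest the medians were 0.684 and 0.736, and over all IDs 0.495 and 0.391. The median log2 difference was 1.44 over the members and 0.09 over all IDs. With quantile normalization these were 1.33 and -0.03.

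**Figure D3:**
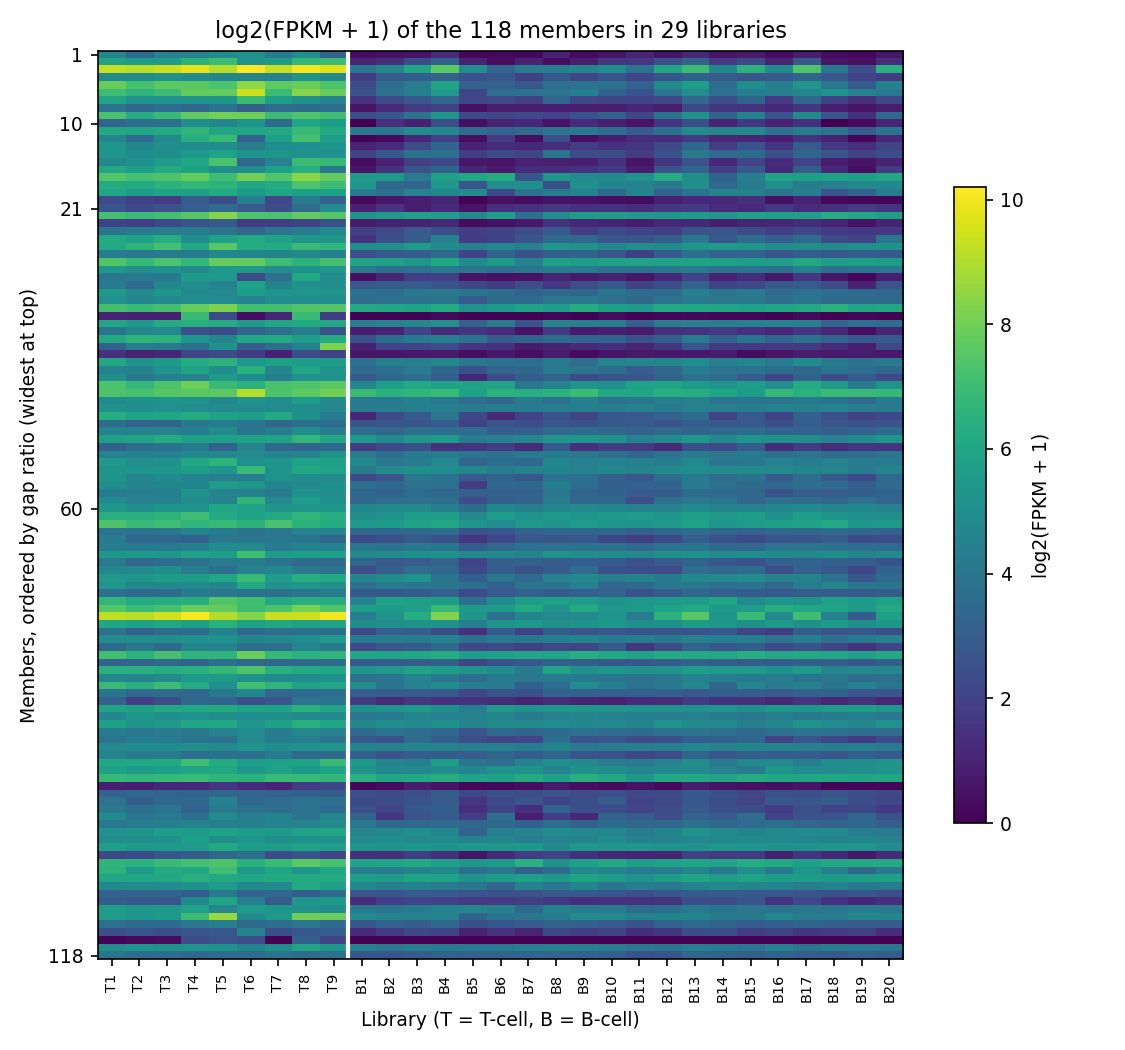
Level of each member as log2(FPKM + 1) (colour) in 9 T-cell and 20 B-cell libraries (columns, divided by a white line), with members ordered from the widest to the narrowest gap. The first 21 members have a gap ratio of 1.5 or more, and from the 61st on it is below 1.1, where the change in colour at the white line is slight.

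The share of all FPKM taken by the members averaged 1.75% ± 0.485 over the T-cell libraries (SD, n = 9). Over the B-cell libraries it averaged 0.438% ± 0.0837 (SD, n = 20). Among T-cell libraries it ran from 1.08% in library 2 over a median of 1.68% to 2.60% in library 5. Among B-cell libraries it ran from 0.224% in library 5 over a median of 0.432% to 0.622% in library 13. The groups do not overlap, which the choice of members favours. T-cell library 5 had the lowest summed FPKM of the series, 319067, and B-cell library 5 the highest, 677096. T-cell library 5 also had the lowest depth, 0.523 relative to B-cell library 1, in a range up to 2.22. The part of library size in these shares was not tested.

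T-cell tumours differed in how far they expressed the members. The mean log2(FPKM + 1) over the 118 was lowest in T-cell library 2, at 4.80, and highest in library 8, at 5.40, with a median of 5.16. Library 2 held the lowest T-cell value of 34 members and the highest of 3. Library 5 held the highest value of 32 members and the lowest of 13. Library 6 was at both ends, with the lowest value of 27 members and the highest of 26, and its median correlation with the other T-cell libraries over the members was the lowest, 0.818. Over all IDs it was also the lowest, 0.803. Libraries 3 and 7 were seldom at an end: library 3 was lowest for 5 members and highest for 3, and library 7 was lowest for 6 and highest for 0. How often each library was at an end over all IDs is not given here. These counts therefore do not show a trait particular to the members.

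Some members, like some of all IDs, were far higher in a single T-cell tumour than in the others. For 28 members (23.7%) the highest T-cell library stood apart from the other 8 by Dixon's test on FPKM. The lowest library stood apart for 0 members. Over all IDs examined the shares were 17.8% and 2.14%. Chance gives about 1 in 20 over both ends together for normally distributed values, and FPKM were not shown to be so. The rule used these T-cell values and asks for a high lowest one, which favours the 0. The shares of the members therefore describe the set. The library that stood apart was T-cell library 6 for 13 of the 28 and library 5 for 8. The same libraries led over all IDs, with 852 and 593 of 2055. On the log2 scale the highest library stood apart for 10 members (8.47%), against 6.27% of all IDs.

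B-cell tumours also differed in the mean of the members. It ran from 2.98 in B-cell library 5 over a median of 3.43 to 3.96 in library 13, with an SD of 0.254 (n = 20). The SD over T-cell tumours was 0.194 (n = 9), and the difference between these SDs was not tested. Library 13 held the highest B-cell value of 30 members and library 4 of 16, followed by library 8 with 13 and library 3 with 11, and 2 libraries held it for none. Library 13 was among the 5 highest B-cell libraries for 87 of the 118 members, library 4 for 71 and library 3 for 59. Library 5 was among them for 9 and library 11 for 6. The same counts over all IDs are not given here, so these may hold for the libraries in general. The relative depth was 1.54 in library 13, 1.12 in library 4, 1.099 in library 5 and 2.16 in library 11, and the part of depth was not tested.

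**Figure D4:**
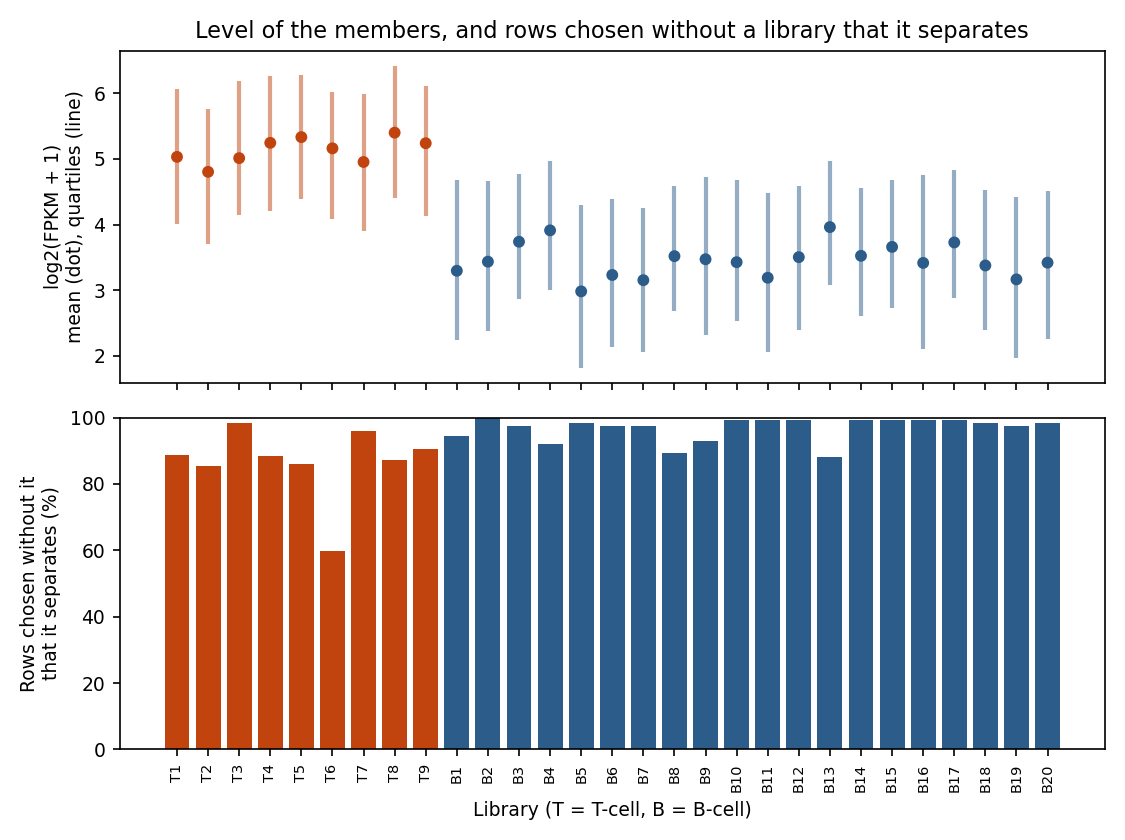
Upper panel, mean (dot) and quartiles (line) of log2(FPKM + 1) over the 118 members in each library. Lower panel, the percentage of rows chosen by the same rule without a library that this library then separates as well, which is 59.7% for T-cell library 6 and between 85.5% and 98.3% for the other T-cell libraries.

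Because the rule uses every library, each library was also left out of the choice and then placed against the IDs chosen without it, a value the choice did not use. This placement was added after the data were examined. Without T-cell library 6 the rule gave 196 IDs. Library 6 lay above every B-cell library for 117 of them (59.7%), and for 49 (25%) it did not even exceed the B-cell median. The other T-cell libraries lay above every B-cell library for 85.5% to 98.3% of the IDs chosen without them. They failed to exceed the B-cell median for at most 7 of 135 IDs (5.19%), in library 5, and for 0 IDs in libraries 1, 7 and 8.

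B-cell libraries left out in the same way lay below every T-cell library for 88.1% to 100% of the IDs chosen without them. The lowest share was that of library 13, at 118 of 134, and library 8 followed with 118 of 132. The number of members was lowered most by T-cell library 6: 79 further IDs would join without T-cell library 6, against 20 without T-cell library 2 and 16 without B-cell library 13. The relative depth of T-cell library 6 was 1.62. Among T-cell libraries, which ran from 0.523 over a median of 1.25 to 1.72, only library 8 was deeper. The part of depth in this placement was not tested.

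The members were not equally steady within the 2 phenotypes. The SD on the log2 scale had a median of 0.401 among T-cell tumours and of 0.383 among B-cell tumours, against 0.495 and 0.391 over all IDs. It was larger in T-cell tumours for 55.9% of the members and for 70.0% of all IDs. A set chosen for groups that do not overlap favours a small spread, so these shares describe the set.

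Of the 118 members, 24 had an SD in B-cell tumours at least 1.5 times that in T-cell tumours. Their T-cell medians ran from 8.86 to 667 FPKM, and their mean log2(FPKM + 1) moved only from 5.61 in T-cell library 2 to 6.01 in library 8. Over B-cell tumours it ran from 3.02 in library 7 over a median of 3.58 to 4.63 in library 4. Libraries 4 and 13 each held the highest B-cell value of 7 of the 24. Another 27 members had the opposite pattern, with an SD in T-cell tumours at least 1.5 times that in B-cell tumours. Their mean ran from 3.76 in T-cell library 2 over a median of 4.25 to 5.11 in library 8, and over B-cell tumours from 2.13 to 2.88. The highest T-cell value lay in library 6 for 9 of these, in library 5 for 7 and in library 8 for 6. Because the 24 and the 27 were picked by their SDs, the narrower range of each in 1 phenotype follows in part from that choice. Among all members, 17 covered over 5-fold within T-cell tumours and 8 over 10-fold, while 35 stayed within 2-fold. The median fold range over T-cell tumours was 2.39 for the members and 3.40 for all IDs. The counts in this paragraph are not given over all IDs, so they do not show a trait particular to the members.

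Members tended to vary together among B-cell tumours. Over the 6903 pairs of members the median Pearson r of log2(FPKM + 1) across the 20 B-cell libraries was 0.312, with 24.1% of pairs above 0.5 and 15% below 0. Over pairs of all IDs the median was 0.009, with 8.01% above 0.5. The 65 IDs that lay below every B-cell library in all T-cell libraries, chosen by the mirrored rule, had a median of 0.204. All pairs share the same libraries and their scaling, and the value moved with it: it was 0.173 with quantile normalization, 0.191 with median-of-ratios scaling and 0.419 with each library set to the same sum. Over all IDs these settings gave -0.002, -0.011 and 0.106. Without B-cell libraries 4 and 13 the value over the members was 0.236. The same-sum scaling and this pair of libraries were chosen after the data were examined. For the 24 members that spread more among B-cell tumours the median r was 0.435, and for the 27 that spread more among T-cell tumours 0.318. Across T-cell libraries these were 0.077 and 0.300. Both subsets were picked by their SDs in the same libraries, so these values describe them only.

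Among T-cell tumours the median r over the 9 libraries was 0.126, with 40.6% of pairs below 0, against 0.005 over all IDs and 0.310 over the 65 IDs of the mirrored rule. It was 0.152 with median-of-ratios scaling, 0.216 with quantile normalization and 0.494 with each library set to the same sum. Over all IDs the same-sum scaling gave 0.119. The order of the phenotypes turned with the scaling: the T-cell value was the lower as deposited and with median-of-ratios scaling, and the higher with the other two. The difference between them was not tested. With 9 libraries a single r is imprecise.

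ENSCAFG00000007379 correlated with the other 117 members at a median r of 0.388 across B-cell libraries, from -0.338 to 0.932. It exceeded 0.5 for 39 of them, against 7.40% of all IDs, and 0.7 for 15 of them. Across T-cell libraries its median r was 0.329, with 48 members above 0.5, against 19.5% of all IDs, and 36 members below 0. ENSCAFG00000017526 had a median r of 0.393 across B-cell libraries and of 0.218 across T-cell libraries, with 34 and 15 members above 0.5, against 6.87% and 5.18% of all IDs. Across B-cell libraries 11 members had an r below 0 with ENSCAFG00000007379 and 12 with ENSCAFG00000017526.

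**Figure D5:**
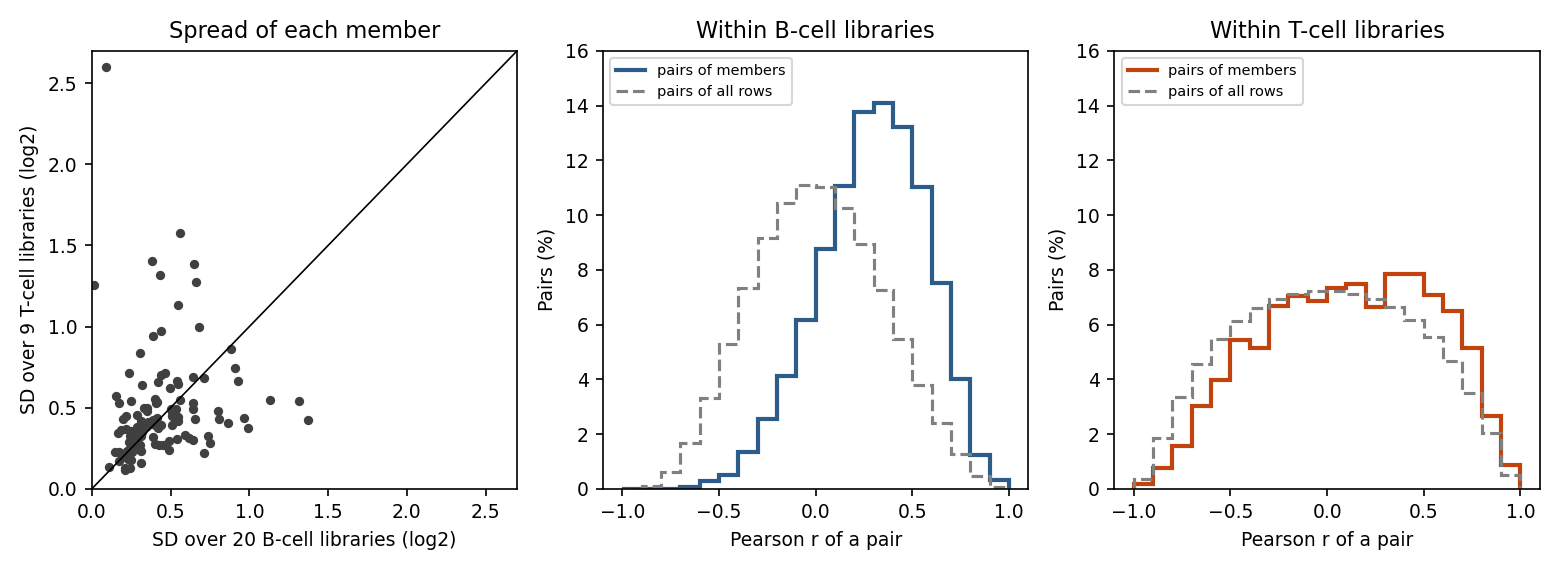
Left, the SD of log2(FPKM + 1) of each member over 9 T-cell libraries against that over 20 B-cell libraries, with the line of equal SD. Middle and right, the distribution of Pearson r over the 6903 pairs of members (solid) and over pairs of all 11552 IDs (dashed) within B-cell and within T-cell libraries, with medians of 0.312 against 0.009 and 0.126 against 0.005.

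Sex, neuter status and age were not used to choose the members, so the members could be tested for them with phenotype in the model, using limma over all 11552 IDs with Benjamini-Hochberg adjustment. None of the 118 members differed between females and males, with a lowest adjusted p of 0.4, where 1 of all IDs (0.00866%) passed. At an unadjusted p under 0.05 there were 9 members (7.63%), 6 higher in females and 3 higher in males, against 10.9% of all IDs. This count was 14 without T-cell library 7, 16 without B-cell library 7, and 5 without B-cell library 15 or 19. The half-width of the 95% interval had a median of 0.308 log2 units over the members, for a single test without adjustment. Passing the adjusted threshold takes a larger difference. The member with the lowest unadjusted p had a log2 difference of 0.843 ± 0.283 (SE; limma adjusted p = 0.4). ENSCAFG00000007379 had a log2 difference, females minus males, of 0.24 ± 0.32 (SE; limma adjusted p = 0.78), and that of ENSCAFG00000017526 was 0.30 ± 0.17 (SE; limma adjusted p = 0.489).

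Neutered and intact dogs did not differ in any member past the threshold either (0.0% of all IDs passed), and the lowest adjusted p by limma was 0.433. At an unadjusted p under 0.05 there were 3 members (2.54%), against 11% of all IDs. Omitting B-cell library 5 gave 8 and omitting T-cell library 9 gave 5, whereas omitting B-cell library 14 or T-cell library 6 gave 1. The median over the members was 0.01 log2 units, neutered minus intact, and its sign was not stable: it was -0.11 with limma array weights, -0.09 without B-cell library 5 and 0.08 without B-cell library 4. The half-width of the members' 95% intervals had a median of 0.38. Only 6 dogs were intact, 3 in each phenotype.

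Age gave 0 members past the threshold and 0.0% of all IDs, with a lowest limma adjusted p of 0.899. The fitted slopes nevertheless pointed mostly one way: 104 of the 118 members were lower in older dogs, against 47.4% of all IDs. The median slope was -0.025 log2 units per year over the members and 0.002 over all IDs, and 13 members (11%) had an unadjusted p under 0.05, all with lower values in older dogs, against 5.02% of all IDs. The slope of ENSCAFG00000007379 was -0.12 ± 0.05 per year (SE; limma adjusted p = 0.899). Members that vary together do not count as separate evidence, so the common sign is a description. The count of 13 moved both ways with single libraries left out. It was 5 without T-cell library 5, B-cell library 5 or B-cell library 13, 6 without B-cell library 4, and 8 without B-cell library 8 or 19. It was 16 without B-cell library 15, 17 without B-cell library 2 and 19 without B-cell library 1. With quantile normalization it was 21. With limma array weights it was 7 (5.93%), of which 6 were lower and 1 higher in older dogs. The share of all IDs, 858 of 11552, was then larger than that of the members. The median slope was then -0.009 over the members and 0.005 over all IDs. Of the 118 slopes 81 were negative, against 42% of all IDs.

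The labels write the phenotype with a hyphen for 2 T-cell and 8 B-cell libraries and with a space for the others, and the meaning of this is not given. With phenotype in the model, 0 members differed with the spelling, as did 0.0% of all IDs, with a lowest limma adjusted p of 0.723. At an unadjusted p under 0.05 there were 5 members (4.24%), against 6.74% of all IDs. The median over the members was -0.11 log2 units, lower where the label has a hyphen, against 0.01 over all IDs. That sign was found for 89 of 118 members, against 48.1% of all IDs. Since members vary together, this common sign too is a description. The count of 5 ranged from 3, without T-cell library 2 or B-cell library 5, to 12, without B-cell library 3 or 4. It was 8 without B-cell library 7 or 10 and 9 without B-cell library 9 or 19. The labels name no other possible batch.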

How the data were processed

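The deposited table holds FPKM per Ensembl gene ID, made by the authors. The submitters' processing notes list TopHat 1.4.1, Cuffdiff and FastQC 0.11.2, and the build CanFam3.1. Options, annotation release and scaling across libraries: not given in the sources used here. Of 78 columns of values, 29 carry a sample title and were used, and 49 were not used. Phenotype was read from the labels. Library numbers follow accession order inside each phenotype and pair nothing. The members and gene lists were chosen with earlier results of these data known. The lists, by symbol, were not applied, since 0 IDs matched. Named members are ENSCAFG00000007379, given with the set, and the other member with the largest gap ratio.

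Log2(FPKM + 1) was fitted with limma 3.58.1 in R 4.3.3 (variance trend, robust, two-sided, Benjamini-Hochberg threshold of 0.05) over IDs with at least 1 FPKM in at least 5 libraries. Sex and neuter status were fitted with phenotype and each other, age with all 3, and label spelling with phenotype. Phenotype itself called 23.6% of IDs higher in T-cell tumours, a contrast the members were chosen on. Fragment counts are unknown, so no counting intervals are given. Relative depth was read from ratios of FPKM below 0.2, which fitted 1 depth per library within 0.05 log2 units in 99.8% of library pairs, and it includes any scaling by the authors. No 2 libraries were identical. Python 3.11.15, numpy 2.4.6, pandas 2.3.3 and matplotlib 3.10.9 were used. The fits and the depth reading were tested on simulated data. Alternatives covered scaling, filter, pseudocount, array weights and libraries left out. Dixon's test was applied to 8 summary values over T-cell libraries.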

Additional observations from a re-analysis of the deposited data

Results flagged for a closer look

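One library stood apart from its group in the values summarised over T-cell libraries. When a library was left out of the choice, T-cell library 6 lay above every B-cell library for 59.7% of the 196 IDs chosen without it, while the next lowest T-cell library, library 2, reached 85.5%. The gap was 0.668 of the group's range, above the 95% critical value of 0.493 for 9 libraries. Chance gives such a gap in about 1 in 20 groups of independent values. These shares come from overlapping choices of IDs by the rule itself, so that rate does not hold for them. In all, 8 values were examined. The other 7 were the FPKM of both named members, the mean and the share of the members, relative depth and the means of the 2 subsets of members with unequal SD, and no library stood apart in them.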

How the results depend on the processing

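The number of members, 118, was 93 with median-of-ratios scaling, 88 with quantile normalization and 105 with each library set to the same sum, and 92, 78 and 75 of these were among the 118. It was 118 without a filter on low values and 108 with a mean of at least 5 FPKM. Asking for a gap ratio of at least 1.5 left 21, as a stricter rule must. Fewer libraries leave more IDs separated: 303 in neutered dogs only (6 T-cell, 17 B-cell), 217 where the label has a space, 223 without T-cell libraries 5 and 6, and 163 without B-cell libraries 4 and 13, a pair chosen after the data were examined. With any single library left out it was 118 to 196, the highest without T-cell library 6. It came from an intact dog and is thus also absent where 303 were found. The tests of sex, neuter status, age and label spelling gave 0 members under all 6 other settings, of which the one without T-cell libraries 5 and 6 was chosen after the data were examined, and with each library left out. No paired analysis was possible because the labels give no replicate numbers. Values near 0 FPKM are limited by the unknown fragment counts.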
